A study of Sus scrofa with 9 samples.

Results

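The genes described here are the components of the complement cascade and the receptors of its cleavage products that were measured in the abdominal aorta of Tibetan minipigs. They were taken by name: C1QA, C1QB, C1QC, C1R, C1S, C3, CFB, C3AR1 and C5AR1, together with any gene whose description begins with complement C4. That rule gave 10 genes of the 21357 in the deposited table. Of these, 7 carried the name itself, C4A was found by its description, and CFB and C3AR1, whose names the table leaves out, were found by their gene identifiers (ENSSSCG00000024914 and ENSSSCG00000023868). The rule itself uses names only and no measured value.

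Complement is a cascade of plasma proteins that tags particles, dying cells and microbes for removal. In the classical pathway, C1q, a bundle of chains from C1QA, C1QB and C1QC, binds its target and activates the proteases C1r and C1s, which cut C4 and C2 to form an enzyme that cuts C3. Factor B, the product of CFB, forms the corresponding enzyme of the alternative pathway, so that deposited C3b is amplified. The small fragments C3a and C5a, called anaphylatoxins, attract and activate leukocytes through C3AR1 and C5AR1. The liver makes most of the plasma pool, C1q is made mainly by macrophages, and C1r, C1s and C3 are also made locally by fibroblasts, endothelial cells and other tissue cells.

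RNA-seq libraries came from 3 groups of minipigs, with 3 libraries in each group. NC pigs received a normal diet for 24 weeks, H24 pigs, labelled as atherosclerosis, a high-fat diet for 24 weeks, and H8 pigs, labelled as hypercholesterolemia, a high-fat diet for 8 weeks. The labels name no genetic change in any group, and the study's methods describe NC and H24 as young males kept in the same animal house. The high-fat feed of H24 also contained added cholesterol and egg yolk. Neither the labels nor the methods give the age of the H8 pigs at sampling, and no library is labelled as a normal diet for 8 weeks, so in H8 against NC and in H24 against H8 the diet and the length of the experiment cannot be told apart. The labels number the libraries 1 to 3 in each group without tying numbers to litters or days, and they do not state that each library was a separate pig. The methods, which describe NC and H24 only, say that 3 pigs of each group were sequenced.

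Total counts ranged from 44094263 to 75787978 per library. Across genes, Pearson's r of log2 CPM (counts scaled to library size) between NC libraries was 0.960 to 0.964. H24 replicate 3 stood apart, with r of 0.872 and 0.830 to the other H24 libraries, and H8 replicate 2 had r of 0.941 and 0.935 to the other H8 libraries, against 0.963 between those. The aortic label was checked against smooth muscle markers (8 genes, led by TAGLN, ACTA2 and MYH11). Their summed FPKM (fragments per kilobase of transcript, scaled to library size) was 10249 to 14007 in the NC and H8 libraries, 8216 and 12082 in H24 replicates 1 and 2, and 1755 in H24 replicate 3. Smooth muscle RNA was therefore present in every library, but H24 replicate 3 had far less of it. In whole tissue, more cells of a type and more RNA per cell cannot be told apart. Some fold changes moved by more than 1.5 times, or lost or gained a call, without 1 of these libraries. Many of them, but not all, are also given without it.

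After 24 weeks of high-fat diet, all 10 genes were up-regulated against NC, that is, with a log2 fold change above 1 and an unadjusted p below 0.05 in edgeR's quasi-likelihood test. Of all 14828 genes tested, 9.95% were up-regulated. The increases ran from 1.27 on the log2 scale for C1S to 5.20 for C5AR1, with a median of 4.31, while the median of all genes tested was 0.01. Every H24 library exceeded every NC library for each of the 10 genes, an order that 12.8% of all genes tested showed. None of the 10 passed the threshold of 0.05 after Benjamini-Hochberg adjustment over all genes, with adjusted p-values of 0.132 to 0.351. No gene in the table did in this fit, although 2055 genes had an unadjusted p below 0.05, and DESeq2 called 1004 genes after adjustment. Without H24 replicate 3, 9 of the 10 were up-regulated and 306 genes of the table passed the adjusted threshold. Only 6 genes passed it without H24 replicate 2, and 0 without H24 replicate 1 or any single NC library. The smallest adjusted p of all genes was 0.153 without H24 replicate 1 and 0.397 to 0.465 without an NC library.

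After 8 weeks, 8 of the 10 were already up-regulated against NC, compared with 5.11% of the 14336 genes tested. The remaining pair was C1R, with a log2 fold change of 0.93 ± 0.29 (SE), and C1S, with 0.75 ± 0.24. C3 was the only one of the 10 that passed the adjusted threshold, at an adjusted p of 0.0206 in edgeR, and it ranked 2 of 14336 genes by p. Only 4 genes of the table passed it. In 8 of the 10 genes all H8 libraries exceeded all NC libraries, an order found in 6.91% of all genes tested. The exceptions were CFB and C3AR1.

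**Figure D1:**
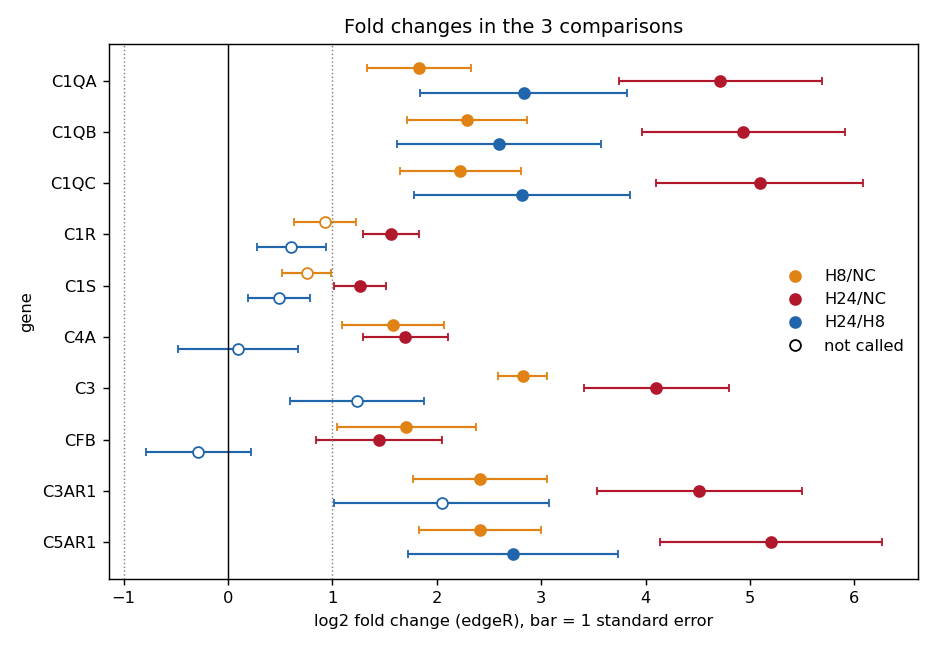
Log2 fold changes of the 10 complement genes from edgeR, with bars of 1 standard error, for H8 against NC (orange), H24 against NC (red) and H24 against H8 (blue). Filled points passed a log2 fold change of 1 (dotted lines) with an unadjusted p below 0.05, which held for 10 genes in H24/NC, 8 in H8/NC and 4 in H24/H8.

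The 3 chains of C1q lie next to each other on chromosome 6 of the pig genome (build Sscrofa11.1, plus strand), with C1QA at chr6:80586183-80591269, C1QC at chr6:80592198-80599440 and C1QB at chr6:80601303-80608011. C1QA, the A chain, had FPKM of 4.03, 2.72 and 3.09 in NC replicates 1 to 3, 19.5, 4.09 and 8.81 in H8, and 28.6, 21.1 and 211 in H24. C1QB, the B chain, had 8.30, 3.76 and 6.05 in NC, 49.9, 8.73 and 23.3 in H8, and 75.2, 44.4 and 438 in H24. For the C chain, C1QC, FPKM was 6.58, 4.11 and 4.48 in NC, 42.3, 6.92 and 16.4 in H8, and 66.0, 38.1 and 417 in H24. In all 3 chains H8 replicate 2 was the lowest diet library, just above the highest NC library, and H8 replicate 1 was near H24 replicate 2. H24 replicate 3 was far above all others.

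In H24 against NC the chains rose by 4.72 ± 0.98 (C1QA), 4.94 ± 0.97 (C1QB) and 5.09 ± 0.99 (C1QC) on the log2 scale (SE, adjusted p = 0.132 for each, edgeR). Without H24 replicate 3 the increases were smaller, 2.90, 3.28 and 3.33, but their adjusted p-values were 0.0046, 0.0067 and 0.0049. The highest adjusted p over the alternatives was 0.465 for each chain. In H8 against NC they rose by 1.83 ± 0.49, 2.29 ± 0.58 and 2.22 ± 0.58 (adjusted p of 0.206 to 0.209), and by 2.19, 2.68 and 2.62 without H8 replicate 2. Without H8 replicate 1 the values were 1.09, 1.52 and 1.32, all still called.

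**Figure D2:**
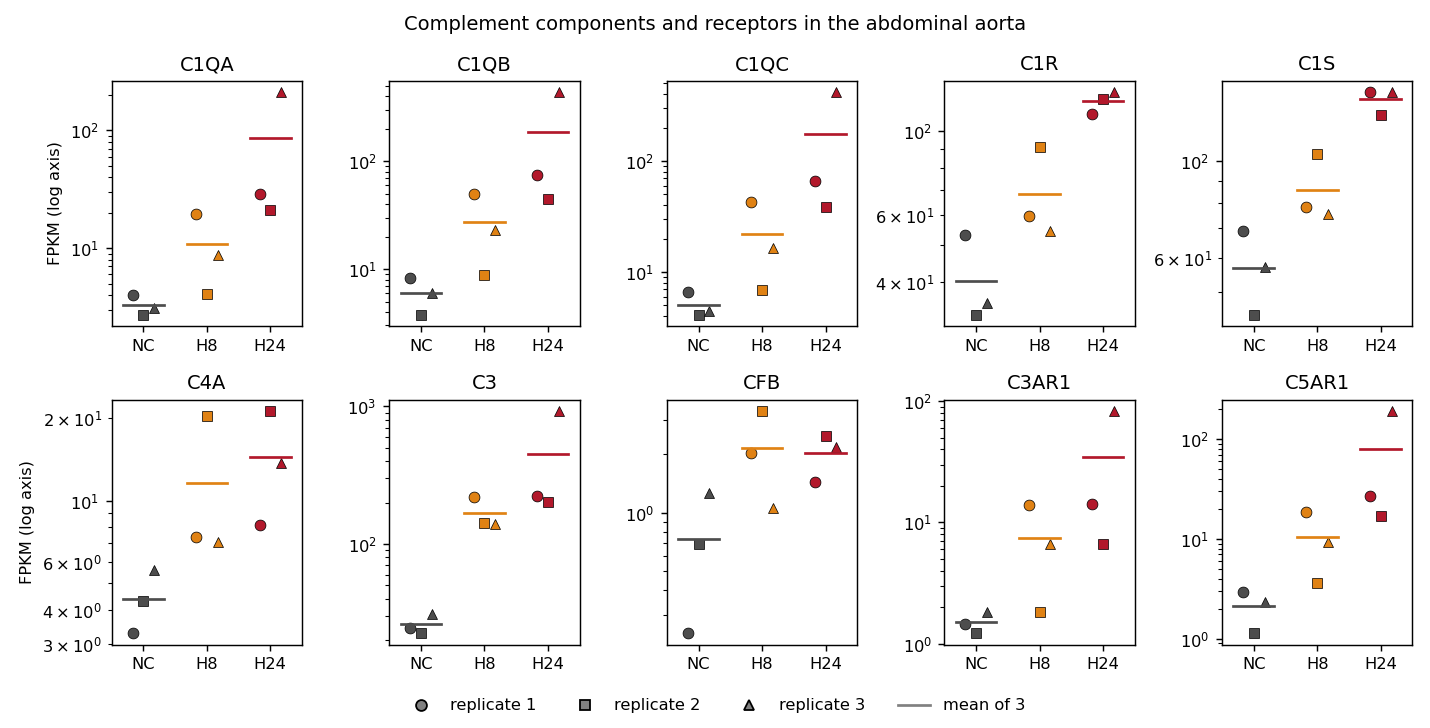
FPKM of each complement gene in the 9 libraries on log axes, with a symbol for each replicate number and a line at the group mean. H24 replicate 3 (red triangle) is the highest library for the C1q chains, C3, C3AR1 and C5AR1, while for C1S it is at 143.7 FPKM, level with H24 replicate 1.

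The proteases of the C1 complex moved less and more evenly. C1R (chr5:63644321-63681418, plus strand) and C1S (chr5:63667706-63708214, minus strand) overlap over 13713 bases on opposite strands. The library kit is not stated to keep strand, so reads from the shared stretch cannot be told apart. C1R had FPKM of 53.1, 32.7 and 35.1 in NC, 59.9, 90.9 and 54.7 in H8, and 111, 122 and 127 in H24. C1S had 68.9, 44.4 and 57.0 in NC, 78.4, 104 and 75.4 in H8, and 144, 127 and 144 in H24. The 3 groups did not overlap for either gene. H8 replicate 2, the lowest diet library for the C1q chains, was the highest H8 library for both proteases, and H24 replicate 3 did not stand apart. The coefficient of variation over the H24 libraries was 6.69% for C1R and 6.77% for C1S, against 118% for C1QB.

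C1R rose by 1.56 ± 0.27 and C1S by 1.27 ± 0.25 on the log2 scale in H24 against NC (SE, adjusted p = 0.132 for both, edgeR). Without H24 replicate 3 their log2 fold changes were 1.52 and 1.23, with adjusted p-values of 0.0282 and 0.0406. H24 against H8 gave 0.61 ± 0.33 and 0.49 ± 0.30, neither past the thresholds. In H8 against NC, C1R was also called when NC replicate 1, H8 replicate 1 or H8 replicate 3 was left out, with a log2 fold change of up to 1.16, whereas C1S was not called in any of its 16 alternatives.

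C4A and CFB lie in the major histocompatibility complex region of chromosome 7. C4A (chr7:24068070-24086128, plus strand) encodes C4, the first substrate of C1s, and was the only gene in the table described as complement C4. Its FPKM was 3.28, 4.31 and 5.59 in NC, 7.35, 20.3 and 7.06 in H8, and 8.19, 21.3 and 13.7 in H24. Every diet library exceeded every NC library, the replicates within each diet group differed widely, and H8 and H24 overlapped. C4A rose by 1.58 ± 0.49 in H8 and by 1.70 ± 0.41 in H24 against NC (SE, log2 scale, adjusted p of 0.239 and 0.146, edgeR). The H8 increase fell below the fold threshold without H8 replicate 2, at 0.78.

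CFB (chr7:24033587-24041617, plus strand), the protease precursor of the alternative pathway, was the least abundant of the 10. Its FPKM was 0.24, 0.69 and 1.27 in NC, 2.02, 3.33 and 1.06 in H8, and 1.43, 2.48 and 2.18 in H24, and its counts ranged from 83 to 1161. H8 replicate 3 was below NC replicate 3, while all H24 libraries were above NC. The log2 fold change was 1.71 ± 0.66 in H8 and 1.45 ± 0.60 in H24 against NC (SE, adjusted p of 0.301 and 0.351, edgeR). CFB was the least stable call, lost in 5 of 16 alternatives for H8 and 6 of 16 for H24, which included leaving out NC replicate 1 or NC replicate 2. The H8 call was also lost without H8 replicate 1 or H8 replicate 2, and the H24 call without any single H24 library. Without NC replicate 3 the log2 fold changes were larger, 2.33 and 2.06. The gene shares 534 bases with C2 on the same strand and 1250 with NELFE on the other, so part of its reads cannot be assigned with certainty.

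C3 (chr2:72431163-72471564, plus strand), the protein on which all activation routes meet, was the most abundant of the 10 in every diet library. Its FPKM was 24.6, 22.4 and 31.1 in NC, 219.6, 142 and 141 in H8, and 223, 202 and 930.3 in H24. Unlike the C1q chains, C3 was far above NC in H8 replicate 2 as well. H24 replicates 1 and 2 were near the level of H8 replicate 1, and only H24 replicate 3 was far above it. By FPKM, C3 ranked between 1328 and 1846 among the genes of the NC libraries, between 175 and 289 in H8, and between 35 and 195 in H24.

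The log2 fold change of C3 in H8 against NC was 2.82 ± 0.24 (SE), which corresponds to a 7.07-fold increase, and it stayed between 2.59 and 2.96 over all 16 alternatives. C3 passed the adjusted threshold in 11 of them. In H24 against NC it was 4.10 ± 0.70 (adjusted p = 0.132, edgeR), or 3.01 without H24 replicate 3, where its adjusted p was 0.0046. The step from H8 to H24 was 1.23 ± 0.64 with an adjusted p of 0.420, and 0.17 without H24 replicate 3, and it was not called. C3 was called in H24 against H8 only by DESeq2 (1.26, unadjusted p = 0.0441, adjusted p = 0.258) and in the fit of all 9 libraries (1.297, unadjusted p = 0.0445, adjusted p = 0.258), among its 16 alternatives.

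The anaphylatoxin receptors C5AR1 and C3AR1 followed the C1q chains. C5AR1 (chr6:53097142-53111565, plus strand), the receptor of C5a on myeloid cells, had FPKM of 2.91, 1.13 and 2.36 in NC, 18.5, 3.64 and 9.33 in H8, and 27.1, 17.1 and 192 in H24. C3AR1 (chr5:63091198-63092627, minus strand), the receptor of C3a, had 1.45, 1.22 and 1.83 in NC, 13.9, 1.82 and 6.63 in H8, and 14.1, 6.62 and 83.3 in H24. For both, H8 replicate 2 was the lowest diet library and H24 replicate 3 the highest. In C3AR1, H8 replicate 2 lay within the NC range, and H24 replicates 1 and 2 were level with H8 replicates 1 and 3.

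C5AR1 had the largest increase of the 10 in H24 against NC, 5.20 ± 1.06 on the log2 scale, or 36.8-fold, and C3AR1 rose by 4.52 ± 0.98 (SE, adjusted p = 0.132 for both, edgeR). Without H24 replicate 3 the values were 3.35 and 2.75, with adjusted p-values of 0.0090 and 0.0181. In H8 against NC both rose by 2.41, with SE of 0.58 for C5AR1 and 0.64 for C3AR1 (adjusted p of 0.201 and 0.206), or by 1.72 and 1.59 without H8 replicate 1.

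**Figure D3:**
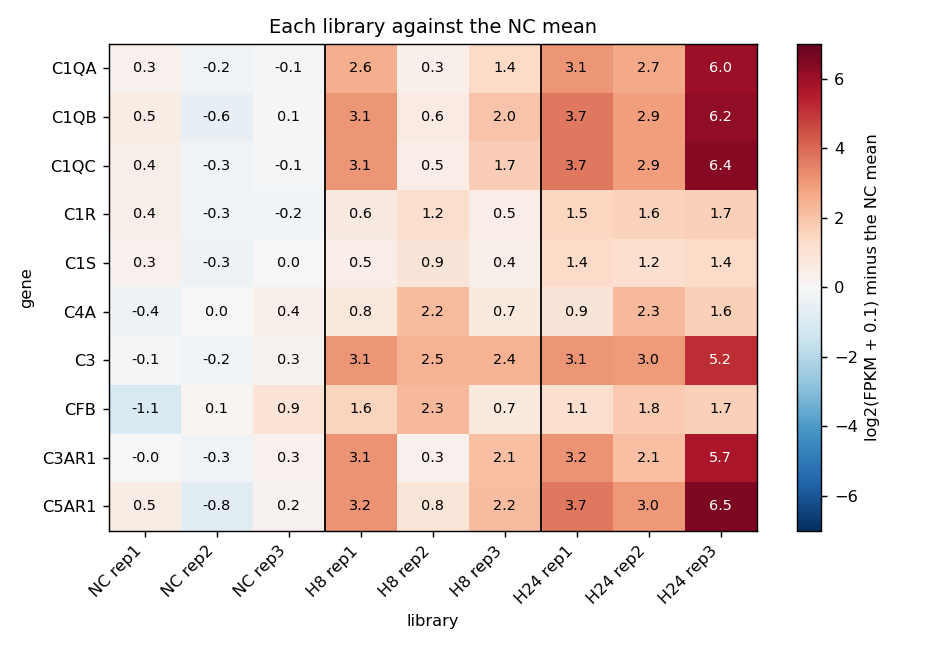
Each library's log2(FPKM + 0.1) minus the mean of the NC libraries, for the 10 genes (rows) and 9 libraries (columns), with red above and blue below NC. H8 replicate 2 is at 0.6 for C1QB and 0.3 for C3AR1 but at 2.5 for C3 and 2.2 for C4A, while H24 replicate 3 reaches 6.2 for C1QB and 1.7 for C1R.

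Between 8 and 24 weeks, 4 of the 10 genes were up-regulated in H24 against H8: C1QA, C1QB, C1QC and C5AR1. The share among all 14788 genes tested was 7.22%. Their log2 fold changes were 2.83 ± 0.99, 2.59 ± 0.98, 2.81 ± 1.03 and 2.73 ± 1.01 (SE, adjusted p = 0.341 for each, edgeR). All of these calls were lost when H24 replicate 3, H8 replicate 2 or H8 replicate 3 was left out. Without H24 replicate 3 the log2 fold changes were 1.05, 0.98, 1.10 and 0.92. C3AR1 gave 2.05 ± 1.03, which was not called, and 0.32 at the lowest when single libraries were left out. CFB was the only one of the 10 with a negative value, -0.29 ± 0.50. All H24 libraries exceeded all H8 libraries for C1QA, C1R and C1S, an order that 15.5% of all genes tested showed.

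Because FPKM is scaled by length, levels of different genes can be compared within a library. Ratios among the genes were formed after the values had been seen, 15 ratios in 3 comparisons, and were tested by two-sided exact permutation of the log2 ratios of the 6 libraries compared. With 3 libraries against 3, p cannot fall below 0.1, and its adjusted value over the 45 tests was 0.237. The ratio of C1QB to C1QA stayed between 1.39 and 2.64 over all libraries, that of C1QC to C1QB between 0.704 and 1.09, that of C1R to C1S between 0.615 and 0.957, and that of C5AR1 to C1QB between 0.301 and 0.440. Over the same libraries C1QB itself ranged from 3.76 to 438 FPKM. Reads in the stretch shared by C1R and C1S cannot be told apart, and their part in that ratio was not tested. Within these ranges, C1QB per C1QA was above NC in all H8 and all H24 libraries (1.37- and 1.27-fold). C1R per C1S was above NC in all H24 libraries (1.23-fold), and C1QC per C1QB was above H8 in all H24 libraries (1.15-fold).

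The ratio of the recognition chains to the proteases of the C1 complex ranged more widely. C1QB per C1S was 0.12, 0.0848 and 0.106 in NC, 0.637, 0.0843 and 0.309 in H8, and 0.523, 0.348 and 3.05 in H24. All H24 libraries lay above NC (8.00-fold between geometric means, exact permutation p = 0.1, or 4.16-fold without H24 replicate 3), whereas H8 overlapped NC because of H8 replicate 2. C1QB exceeded C1S only in H24 replicate 3. C3 per C1S was 0.357 to 0.544 in NC, 1.37 to 2.80 in H8 and 1.55 to 6.47 in H24, a fold of 5.45 for H24 against NC, or 3.40 without H24 replicate 3. C3 per C1QB was highest in H8 replicate 2, at 16.3, and lowest in H24 replicate 3, at 2.13, and its groups overlapped in all 3 comparisons.

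Macrophage markers moved with several of these genes. The 16 markers, of which APOE, GPNMB and CD74 were the most abundant, were all up-regulated in H24 against NC, as were 10 of the 15 tested in H8 against NC and 13 of 16 in H24 against H8. Their summed FPKM was 171 to 249.7 in NC, 249.9 to 1090.0 in H8 and 1079 to 10316 in H24. The lowest diet library was H8 replicate 2 and the highest was H24 replicate 3, as for the C1q chains and both receptors. MARCO was listed at 0 in every NC library and no other macrophage marker was at 0 throughout a group's libraries. Their part in the complement results was not tested in the model.

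Whether C1QB and C5AR1 rose more or less than macrophage markers depended on the marker. C1QB was set against each of the 15 markers with values above 0 in all libraries, as folds between geometric means with no test. In H24 against NC its ratio was higher for 8 markers and lower for 7, with a median fold of 1.14 and a range from 0.460 for GPNMB to 6.71 for MRC1. In H8 against NC it was higher for 10 and lower for 5, with a median of 1.24. The ratios to TYROBP and FCER1G were 0.995- and 0.884-fold in H24 against NC, and those to CD68 and APOE were 0.821- and 0.677-fold. For C5AR1 the median over the markers was 1.29 in H24 and 1.42 in H8 against NC. C3 had a median of 2.09 in H8 against NC and 0.774 in H24 against NC, and in H24 against H8 its ratio was lower for all 15 markers, from 0.313- to 0.748-fold.

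CSF1R, the receptor through which macrophages are sustained, was among the markers that rose less than C1QB. C1QB per CSF1R was 1.48, 0.749 and 1.28 in NC, 2.91, 2.44 and 2.68 in H8, and 2.73, 1.91 and 3.67 in H24. H8 and H24 each lay above NC without overlap, 2.37-fold and 2.38-fold (exact permutation p = 0.1 for each), or 2.03-fold for H24 without replicate 3, and H24 and H8 overlapped. C5AR1 per CSF1R was 0.226 to 0.520 in NC, 1.02 to 1.08 in H8 and 0.734 to 1.61 in H24. C3 per CSF1R was 4.39, 4.46 and 6.59 in NC, 12.8, 39.7 and 16.2 in H8, and 8.08, 8.67 and 7.80 in H24, so that H8 lay above both other groups, 4.00-fold above NC or 2.86-fold without H8 replicate 2. These ratios show unequal change of 2 transcripts and not that CSF1R itself was steady, since CSF1R ranged from 3.58 to 119 FPKM.

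Fibroblast markers (7 genes, led by COL1A1, COL1A2 and DCN) summed to 1443 to 1726 FPKM in NC, 2338 to 3767 in H8 and 2021 to 2117 in H24, with H8 replicate 2 the highest. Of these, 3 were up-regulated in H8 and 2 in H24 against NC. C1S per DCN, the transcript of the fibroblast proteoglycan decorin, was 0.400, 0.199 and 0.252 in NC, 0.336, 0.208 and 0.332 in H8, and 0.421, 0.685 and 1.80 in H24. The H24 libraries lay above NC, 2.96-fold between geometric means (exact permutation p = 0.1) or 1.98-fold without H24 replicate 3, and NC and H8 overlapped. C1R per DCN gave 3.65-fold for H24 against NC, or 2.42-fold without H24 replicate 3. DCN gave the highest of the 7 folds for both proteases. For C1S in H24 against NC the ratio was higher for 5 markers and lower for 2, LUM (0.391-fold, with all H24 libraries below NC) and PDGFRA (0.876-fold), with a median of 1.94. For C1R it was higher for 6 and lower for LUM (0.482-fold), with a median of 2.39.

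**Figure D4:**
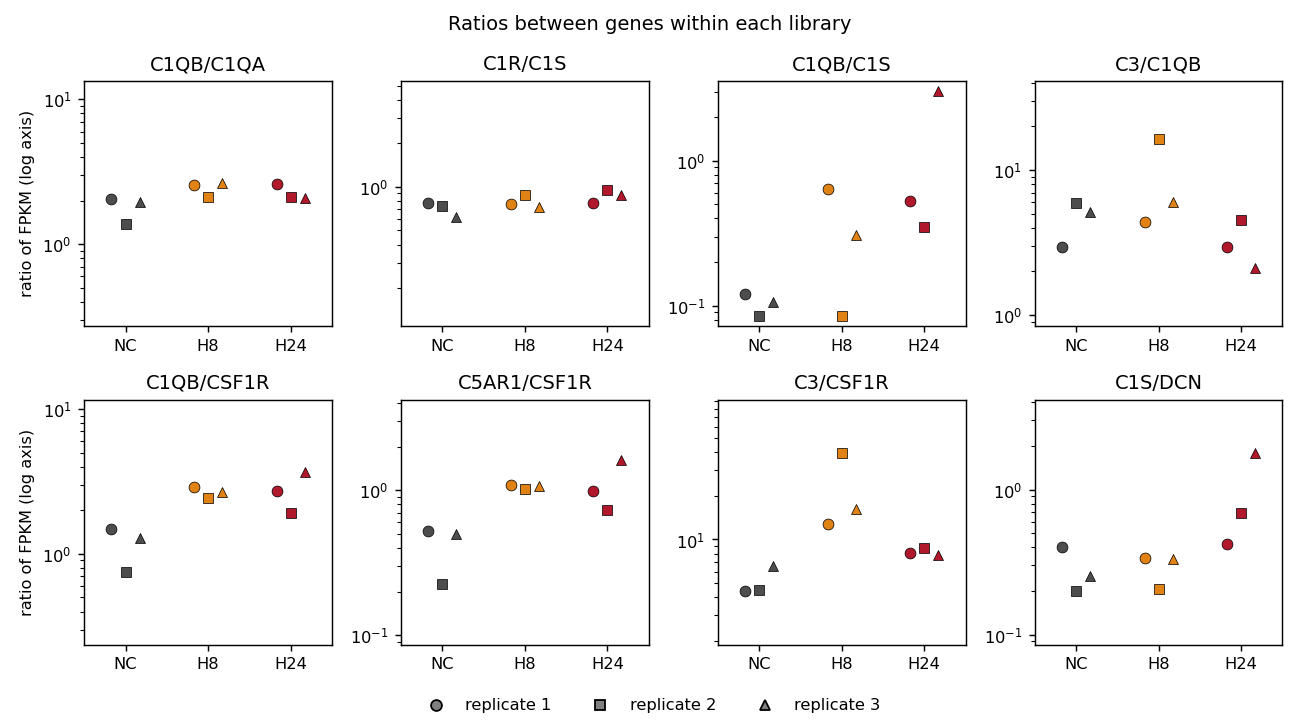
Ratios of FPKM between genes within each library, on log axes, with a symbol for each replicate number. C1QB/C1QA and C1R/C1S stay within a narrow band, C1QB/C1S spans 0.0843 to 3.05, and C3/CSF1R is higher in all H8 libraries (12.8 to 39.7) than in the other groups. C1R and C1S overlap on the genome, and reads from the shared stretch cannot be told apart.

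The other marker lists are given as sums and calls only, without ratios to the complement genes. Neutrophil markers summed to 0.991 to 1.19 FPKM in NC, 3.14 to 4.61 in H8 and 5.61 to 62.3 in H24, T cell markers to 0.288 to 0.514, 0.966 to 1.03 and 3.50 to 17.8, and B and plasma cell markers to 5.87 to 7.21, 2.29 to 4.63 and 10.4 to 13.7. CSF3R made up most of the neutrophil sum in H8, at 4.32, 2.21 and 3.65 FPKM, while S100A8 was at 0 there. Of 3 neutrophil markers tested in H8 against NC, CSF3R was up-regulated, 1 was down-regulated and 1 was not called. Hepatocyte markers summed to 7.26 to 22.7 over all libraries, most of it from APOA1, at 7.24 to 21.5. ALB, a marker of the liver, where most plasma C3 is made, was at 0.00669 to 0.372. Endothelial markers summed to 37.5 to 138.7, adipocyte markers to 62.1 to 174 and erythrocyte markers to 19.7 to 253.7 over all libraries. In H24 against NC, 4 of 7 neutrophil, 5 of 6 T cell and 1 of 6 adipocyte markers were up-regulated and no marker of the B cell, smooth muscle, endothelial, hepatocyte or erythrocyte lists was called in either direction.

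The genes with the most similar profile over the 9 libraries were found among 10714 named genes whose FPKM averaged 1 or more, by the root mean square difference of centred log2(FPKM + 0.1). For C1QB they were C5AR1 (0.13), C1QC (0.18), FCER1G (0.19), TYROBP (0.20) and BTK (0.21). Those nearest to C5AR1 were C1QB (0.13), FCER1G (0.20), CD53 (0.27), C1QC (0.27) and TYROBP (0.28). FCER1G and TYROBP are signalling adaptors of myeloid cells and belong to the macrophage list. The genes near C3 were more distant and included FOLR1 (0.42), ISG20 (0.42), C2 (0.46) and CD83 (0.50). C1S was nearest to C1R (0.18), which it overlaps on the genome, followed by S100A14 (0.23), ACP4 (0.24), CLIP2 (0.24) and TRERF1 (0.24). C1QB was 1.61 from C1S and 0.79 from C3.

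Among 47 other complement genes listed by role, 41 were in the table and 29 were tested in H24 against NC. Of these 29, 12 were up-regulated and none was down-regulated, beside 9.95% and 1.52% of all genes tested. Their median log2 fold change was 0.87. In H8 against NC, 7 of 29 were up-regulated and 2 down-regulated, beside 5.11% and 2.27%. In H24 against H8, 11 of 30 were up-regulated and 1 was down-regulated, beside 7.22% and 3.05%. None of these calls passed the adjusted threshold in edgeR, the smallest adjusted p being 0.0716 for C2 in H8 against NC.

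Of the initiation genes of the classical and lectin pathways, 3 of 8 were up-regulated in H24 against NC. C2, which supplies the protease of the classical C3-cutting enzyme, rose by 4.96 ± 0.99 in H24 and by 2.49 ± 0.32 in H8 against NC (SE, log2 scale). Its FPKM was 2.30, 1.63 and 2.98 in NC, 17.1, 8.64 and 9.87 in H8, and 27.8, 15.8 and 174 in H24, so that like C3 it was above NC in H8 replicate 2. Its H24 value was 3.21 without H24 replicate 3. MASP1, a protease of the lectin pathway, rose by 4.55 ± 1.03 in H24, with 0.259 FPKM in H24 replicate 2 and 2.92 and 3.24 in the others. FCN1, a lectin of monocytes and neutrophils, rose by 5.66 ± 1.62 and ranged over 0.0368 to 0.221 FPKM in NC and 0.335 to 16.1 in H24, with a log2 fold change of 2.55 without H24 replicate 3 and 6.57 without NC replicate 3. PTX3 had a log2 fold change of -1.41 ± 0.80 and was not called. The 2 genes down-regulated in H8 against NC, named after their values were seen, were FCN2 (-4.20 ± 0.56) and MASP2 (-1.75 ± 0.41). FCN2 was 2.12 to 4.55 FPKM in NC, 0.101 to 0.260 in H8 and 1.35, 0.309 and 18.2 in H24, and without H24 replicate 3 it was also down-regulated in H24 against NC, at -2.14. Of 5 adipocyte markers tested in H8 against NC, 3 were also down-regulated, and their part was not tested.

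In the alternative pathway, CFD, the protease that cuts factor B, rose by 1.54 ± 0.56 and CFP, properdin, which stabilises the alternative enzyme, by 2.35 ± 0.95 in H24 against NC (SE, log2 scale). CFP was 0.990 and 0.947 FPKM in H24 replicates 1 and 2, close to the highest NC value of 0.940, and 9.93 in H24 replicate 3. CFD was 25.8, 55.6 and 23.8 in NC and 58.3, 68.6 and 186 in H24. Leaving out H24 replicate 3 gave log2 fold changes of 0.82 for CFD and 0.31 for CFP, neither called. CFP also lost its call without any single NC library, and CFD without NC replicate 1 or 3. Of the terminal pathway, C6 rose by 1.68 ± 0.70 at levels of at most 0.450 FPKM, a call lost without NC replicate 1, NC replicate 2, H24 replicate 2 or H24 replicate 3 (1.39 to 1.62), and C7 had 1.90 ± 0.85, not called. C7 was 6.84, 6.13 and 6.77 FPKM in NC and 4.68, 10.9 and 58.6 in H24, with H24 replicate 1 below every NC library. The transcript of C5, from which the ligand of C5AR1 is cut, was named after its values were seen. It was at 0.0118 to 0.130 FPKM in all libraries and was below the filter for testing.

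Among the fluid phase regulators, C4BPA, which speeds the decay of the classical enzyme, rose by 3.68 ± 0.79 in H24 and 1.63 ± 0.43 in H8 against NC, and CLU, the terminal inhibitor clusterin, by 1.88 ± 0.44 in H24 (SE, log2 scale). C4BPA was 10.1, 4.38 and 35.9 FPKM in H24 and 0.816 to 1.73 in NC, and its increase was 2.44 without H24 replicate 3. SERPING1, the inhibitor of C1r and C1s, was the most abundant regulator of that list in NC, at 139 to 169 FPKM. It was 197 to 262 in H8 and 254 to 296 in H24, a log2 fold change of 0.87 ± 0.25 in H24 that did not reach the fold threshold. CFI had 0.64 ± 0.39. Of 5 genes tested from the list of membrane regulators, CD55, which dissociates C3-cutting enzymes from host cells, rose by 1.39 ± 0.54 in H24 and 1.18 ± 0.46 in H8. CSMD1 (-1.87 ± 0.94), CD46 (0.37 ± 0.22) and CD93 (-0.40 ± 0.45), which were also listed there, were not called. CD55 was 1.82, 1.21 and 1.40 FPKM in NC, 1.66, 4.90 and 2.35 in H8, and 2.56, 2.01 and 7.2 in H24, so H8 overlapped NC. Its log2 fold change was 0.60 without H24 replicate 3 and 0.51 without H8 replicate 2, neither called, and both calls were also lost without any single NC library.

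Receptors for deposited C3 fragments rose with C3AR1 and C5AR1. ITGAM and ITGB2, the subunits of complement receptor 3, rose by 5.43 ± 1.03 and 5.05 ± 1.07 in H24 against NC, and VSIG4, the complement receptor of tissue macrophages, by 5.40 ± 1.02 (SE, log2 scale, adjusted p = 0.132 for each, edgeR). These increases were 3.54, 3.005 and 3.68 when H24 replicate 3 was left out, with adjusted p-values of 0.0046, 0.0046 and 0.0056. ITGAM was 0.286 to 0.394 FPKM in NC and 4.47, 3.37 and 35.2 in H24, and ITGB2 was 1.12 to 1.15 in NC and 11.5, 7.16 and 95.8 in H24. VSIG4 was 4.71, 2.16 and 2.92 FPKM in NC, 53.7, 4.43 and 18.2 in H8, and 55.0, 30.2 and 332 in H24, again with H8 replicate 2 within the NC range. In H8 against NC these receptors rose by 2.30 ± 0.65, 1.86 ± 0.48 and 3.07 ± 0.80, or by 1.49, 1.28 and 1.89 without H8 replicate 1. ITGAM was 2.81, 0.312 and 1.43 FPKM in H8, with H8 replicate 2 within the NC range, and ITGB2 was 6.40, 1.32 and 3.83. LRP1 had a log2 fold change of 0.62 ± 0.26 in H24 and was not called. The listed receptor C5AR2, named after its values were seen, rose less than C5AR1. Its log2 fold change was 1.12 ± 0.49 in H24 (unadjusted p = 0.0546, edgeR) and 0.23 ± 0.42 in H8 against NC, neither called. All H24 libraries of C5AR2, at 1.44 to 3.26 FPKM, exceeded all NC libraries (0.910 to 1.27) and all H8 libraries (0.980 to 1.25). Of all genes tested, 12.8% and 15.5% showed these orders. The listed genes C8G, CR1, ITGAX and CR2 were among those not analysed here.

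**Figure D5:**
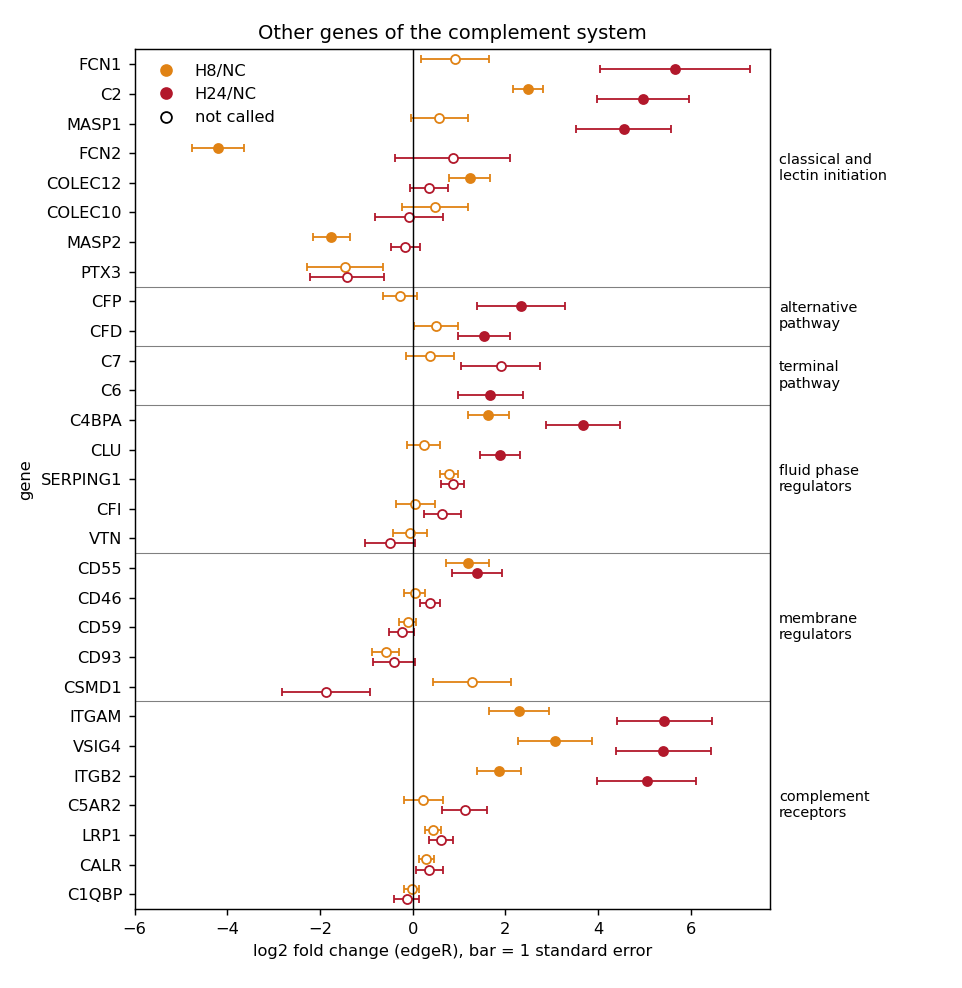
Log2 fold changes of 29 other complement genes from edgeR, with bars of 1 standard error, for H8 against NC (orange) and H24 against NC (red), grouped by role. Filled points passed the thresholds, which 12 genes did in H24/NC, all upward, and 9 in H8/NC, of which FCN2 and MASP2 were lower.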

How the data were processed

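The authors isolated poly(A) RNA from the end of the abdominal aorta, sequenced paired-end libraries, mapped reads to Sscrofa11.1 with HISAT 2.0 and estimated expression with StringTie 1.3.0. The deposited table gives FPKM and expected counts, already whole numbers and not normalized for depth, for 21357 genes. How the authors derived these estimated counts, and the annotation release, are not given in the sources used here. The submitters' processing notes also list Bowtie 0.12.2 and a mouse build, which were not used.

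Counts were tested with edgeR 4.0.16 (R 4.3.3, with the package data.table, version 1.17.8) by the quasi-likelihood test with TMM normalization. Each comparison was fitted on the libraries of its own 2 groups, over all genes whose FPKM averaged 0.1 or more in them. The SE is the log2 fold change divided by the root of its F statistic. A gene was called at the study's thresholds, a log2 fold change beyond 1 with unadjusted p under 0.05, and Benjamini-Hochberg adjusted p-values over all genes are given beside it. The floor was 3 counts, 0.0396 to 0.0680 CPM, which covers counting error only, and every value of the 10 genes was above it. P-values of the fits set the difference between groups against the spread between libraries, which the labels do not state to be separate pigs.

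The 10 genes, the lists of other complement genes by role and of cell type markers were chosen with earlier results of these data known. Of each role list, up to 4 genes with the smallest p in H24/NC and a mean FPKM of at least 0.1 were named, and of each marker list the 3 most abundant. For C1QB, C3, C5AR1 and C1S the 5 genes of most similar profile were taken, of which 1 is not reported here. Genes without a name, 5119 in the table, were named by identifier or NCBI gene number where a reference gave one, which it did for 1626. Alternatives were median-ratio scaling, DESeq2 1.42.0, leaving the filter out or raising it to 1, fitting the 9 libraries together, adding the replicate number as a block, limma 3.58.1 on log2(FPKM + 0.1) and log2(FPKM + 1), and leaving out each library. Library size scaling, edgeR's exact test ratios without H24 replicate 3 or H8 replicate 2, ratios to every macrophage and fibroblast marker, and the listing of each role gene without each library were added after the data were seen. The fit was tested on simulated data.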

Additional observations from a re-analysis of the deposited data

Results flagged for a closer look

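In H24 against H8, 4 of the 10 complement genes passed the unadjusted thresholds in edgeR. With no normal-diet library at 8 weeks, a difference in the effect of the diet and the length of the experiment cannot be told apart. Log2 fold changes were 2.83 for C1QA, 2.59 for C1QB, 2.81 for C1QC and 2.73 for C5AR1, each with an unadjusted p of 0.0241 to 0.0322 and an adjusted p of 0.341. All 4 calls were lost without H24 replicate 3, without H8 replicate 2 or without H8 replicate 3. Only C1QA had H24 libraries that were all above the H8 libraries.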

How the results depend on the processing

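Over 16 alternatives, 9 or 10 of the 10 genes were called in H24/NC and 6 to 9 in H8/NC. In H24/H8 the count of 4 ranged from 0 to 5 when single libraries were left out, and was 0 without H8 replicate 2, H8 replicate 3 or H24 replicate 3. Of the other complement genes, 12 were called in H24/NC, 8 to 14 over 15 alternatives. The 9 called in H8/NC became 4 with limma on log2(FPKM + 1). The 12 in H24/H8 became 6 under the replicate block, 4 with limma on log2(FPKM + 1) and 5 to 12 when single libraries were left out. Same-numbered libraries did not deviate together (r of -0.085 to 0.107), so the numbers were not taken as pairs. With the block, the counts of the 10 genes called stayed 10, 8 and 4. No call turned its direction, and of 478 values for single genes 438 kept direction and side of the thresholds, 25 lost the call, 9 gained it and 6, for CFB and C4A in H24/H8, were uncalled values of either sign. DESeq2 gave no p for C1QA in H24/NC and H24/H8. The count of all genes passing the adjusted threshold in H24/NC was 0 in edgeR's quasi-likelihood test, 883 in its exact test and 1004 in DESeq2. Scaling by library size moved the median log2 fold change of all genes to -0.13 in H8/NC and 0.24 in H24/H8, and the up- and down-regulated genes from 733 and 326 to 576 and 459 in H8/NC and from 1068 and 451 to 1447 and 290 in H24/H8. Every one of the 10 has 1 row in the table, so summing rows of a name gave no other value.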
